A study of Mus musculus with 60 samples.

Results

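The genes described here are 42 genes of DNA replication and S phase, chosen by function as a list of mouse symbols and found by identifier in both deposited count tables, where they are 42 of 56980 gene identifiers. The rule used no measured value, but the list was drawn up with earlier results of these data known. All 42 passed the filter on low counts in both tables, so none was left out of a test. Their counts come from 60 libraries of polyA RNA from mouse fibroblasts, 36 in a reprogramming table with 12 groups and 24 in an inhibitor table with 8 groups, with 3 libraries in each group.

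The cells of the reprogramming table were tail tip fibroblasts that carried a doxycycline-inducible OKSM cassette (Oct4, Klf4, Sox2 and Myc from a tetO promoter in Col1a1, with M2-rtTA at ROSA26). Cells labelled D/KO had the genotype 4FJ_ERCC1_(d/-) and came from a male of 8 weeks. Cells labelled WT were 4FJ_(+/-)_OCT4-GFP, from a female of 22 weeks. Both were sampled at day 0 and after 2 or 4 days of doxycycline at 2 µg/ml, alone or with VC, which is ascorbic acid at 50 µg/ml and CHIR99021, a GSK3 inhibitor, at 3 µM. The inhibitor table held tail tip cells of the genotype ERCC1_(d/-) from a female of 4 weeks, either untreated (control D/KO) or after 3 days with Repsox or Vactosertib at 0.1 µM or DMH-1 or A83-01 at 1 µM. It also held untreated ERCC1_(+/+)_WT cells from the tail tip and from the skin, each from a female of 14 weeks. The titles mark the skin libraries wt-2 and the tail tip libraries wt, and do not say whether both came from the same animal. The last group was 4FJ_(+/-)_OCT4-GFP cells labelled TGFB from a female of 22 weeks. Repsox, Vactosertib and A83-01 inhibit the TGF-β type I receptor kinase and DMH-1 inhibits BMP type I receptors. Genotype, age and line change together in each table, and so does sex in the reprogramming table, so that their effects cannot be told apart. No library was taken at day 2 or day 4 without doxycycline, so doxycycline and days in culture cannot be told apart either. The RNA was taken in triplicate, and the labels do not say that the 3 libraries of a group came from separate cultures, so p-values measure the spread between these libraries, which may be technical.

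DNA replication starts where the origin recognition complex, Cdc6 and Cdt1 load the Mcm2 to Mcm7 helicase in G1, and Gmnn keeps Cdt1 from loading it again later. In S phase Cdc45 and the GINS complex switch the helicase on, polymerase α with primase starts each strand, and polymerases δ and ε extend it on the Pcna ring that the Rfc complex loads. Ribonucleotide reductase, Tyms, Tk1 and Dut supply and guard the deoxynucleotides, the Rpa trimer covers single strands, Fen1 and Lig1 join Okazaki fragments, and Chaf1a and Chaf1b place histones behind the fork. Many of these genes are E2F targets that are low in resting fibroblasts and are switched on when cells enter S phase.

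The windows around the starts of these genes were read first, since shared letters there are a property that the choice of genes did not use. RefSeq promoter windows of GRCm38.p6, from 250 bases before to 50 bases after a start, were found for 34 of the 42 genes. The letters of an E2F site, TTTCCCGC, TTTCGCGC, TTTGCCGC or TTTGGCGC on either strand, stood in the windows of 13 of the 34 (38.2%), against 2.6% of 27025 genes with a window. The letters CCAAT stood in 21 (61.8%), against 41.1% of all genes, and the CHR letters TTTGAA, which are typical of genes of mitosis, in 4 (11.8%), against 20.2%. The 22 G2 and mitosis genes listed for comparison held E2F letters in 5.56%, CCAAT in 83.3% and CHR letters in 72.2% of the 18 that had a window. A match is a description of these letters and not evidence of a bound factor. Below are the 160 bases before the start of 6 members, the first 4 with E2F letters and the last 2 without them, which are shown because Mcm5, Cdc6 and Pola1 each had 1 of the largest changes of a comparison, Mcm6 is a partner of Mcm5 in the helicase, and Rrm2 and Rfc1 were called in comparisons against the direction of most members. Capitals mark E2F and CCAAT letters on either strand, and overlapping matches run together.
Mcm5 (chr8:75109349-75109508, plus strand): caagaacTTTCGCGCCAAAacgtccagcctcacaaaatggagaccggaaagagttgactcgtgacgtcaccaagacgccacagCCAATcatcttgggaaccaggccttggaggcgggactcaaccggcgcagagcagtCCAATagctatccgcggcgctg
Mcm6 (chr1:128359706-128359865, minus strand): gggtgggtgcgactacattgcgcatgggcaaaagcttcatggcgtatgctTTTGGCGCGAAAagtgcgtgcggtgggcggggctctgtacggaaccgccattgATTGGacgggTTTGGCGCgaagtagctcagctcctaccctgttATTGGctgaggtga
Cdc6 (chr11:98907991-98908150, plus strand): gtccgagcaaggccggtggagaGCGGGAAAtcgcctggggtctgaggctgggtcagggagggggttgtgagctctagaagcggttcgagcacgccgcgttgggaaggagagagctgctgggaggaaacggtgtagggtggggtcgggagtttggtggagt
Pola1 (chrX:93632156-93632315, minus strand): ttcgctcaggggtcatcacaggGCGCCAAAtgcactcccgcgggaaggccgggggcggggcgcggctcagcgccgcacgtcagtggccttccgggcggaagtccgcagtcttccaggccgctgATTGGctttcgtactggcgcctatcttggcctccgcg
Rrm2 (chr12:24708094-24708253, plus strand): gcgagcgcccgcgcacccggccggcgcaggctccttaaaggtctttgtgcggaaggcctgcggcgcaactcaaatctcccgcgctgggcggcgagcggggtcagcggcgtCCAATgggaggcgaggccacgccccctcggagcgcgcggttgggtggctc
Rfc1 (chr5:65335640-65335799, minus strand): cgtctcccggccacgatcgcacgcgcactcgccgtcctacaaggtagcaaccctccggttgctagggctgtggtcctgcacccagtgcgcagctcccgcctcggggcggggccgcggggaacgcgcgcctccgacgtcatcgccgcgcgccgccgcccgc

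The genes lie on many chromosomes. In the deposited tables, which use GRCm39, Mcm5 (identifier ENSMUSG00000005410) lies at chr8:75836197-75855067 on the plus strand, Cdc6 at chr11:98798627-98814766 on the plus strand and Rrm2 at chr12:24758240-24764145 on the plus strand, and each count covers the exons of the whole gene. In GENCODE M39, 26 of the 42 overlap another annotated gene, for instance Rfc4 with Eif4a2, Tk1 with Afmid, Orc6 with Vps35, Fen1 with Tmem258 and Mcm7 with Cops6 on the other strand and with Mir106b, Mir25 and Mir93 on its own. The strand setting of the counting is not given in the sources used here, so that reads of such partners cannot be told apart. Counts were low for Fen1, with 3 to 42 per library, while Mcm10 had 2 to 226, Orc1 5 to 81 and Gins1 7 to 91.

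The 36 reprogramming libraries held 16538374 to 18484951 counts each, and the 24 inhibitor libraries 17102639 to 30599138. Levels are given as CPM, counts scaled to library size with TMM factors within a table, and the values of the 3 libraries of a group are divided by slashes. Ercc1 itself was at 8.04 to 18.6 CPM in the 18 D/KO and 16.9 to 29.1 CPM in the WT libraries of the reprogramming table, ranges that overlap. In the inhibitor table it was at 13.2 to 23.5 CPM in D/KO and 13.3 to 21.7 CPM in WT tail tip libraries and did not separate them, and counts per gene do not resolve a truncated allele. Pou5f1 (Oct4) was at a mean of 0.835 CPM at day 0 and 68.8 CPM at day 2 in D/KO cells, and at 1.96 and 34.3 CPM in WT cells. Fibroblast markers such as Col1a1 and Dcn summed to at least 34961 CPM in every library. The leukocyte list summed to at most 38.0 CPM and the melanocyte list to at most 22.8 CPM, with Cd3e and most often Tyr and Mlana at 0. Libraries of WT skin, of Repsox and, less so, of WT tail tip differed in a way that followed gene length. In WT skin replicate 1 the tested genes under 2000 bases stood 1.26 log2 units further above the other 2 libraries than those over 5000 bases (medians over genes), and in Repsox replicate 2 the gap was 1.06 units, against a median size of 0.17 over the 60 libraries. In WT tail tip the same gap was -0.68 units in replicate 2 and 0.519 units in replicate 3. Tests that use WT skin replicate 1 or Repsox replicate 2 are also given without that library, and single levels are given by library.

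Summed over the 42 genes, the level was highest in D/KO cells at day 4 of doxycycline with VC and lowest, within that table, in WT cells without VC. D/KO cells had 606.0 ± 49.9 CPM at day 0 (SD, n = 3), 829.2 ± 56.5 at day 2 and 727.0 ± 40.1 at day 4. With VC they had 729.1 ± 34.7, 1064.2 ± 41.5 and 1312.8 ± 26.5 CPM. WT cells had 454.8 ± 10.47, 513.1 ± 23.8 and 452.9 ± 2.46 CPM without VC, and 796.7 ± 27.1, 661.5 ± 22.3 and 678.5 ± 3.32 CPM with it. Of the 42 genes, 33 had their highest mean of the 12 groups in D/KO cells at day 4 with VC, and 10 and 20 had their lowest in WT cells without VC at day 0 and day 4. In bulk RNA, fewer cells in S phase and less of these RNAs per cell cannot be told apart.

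**Figure D1:**
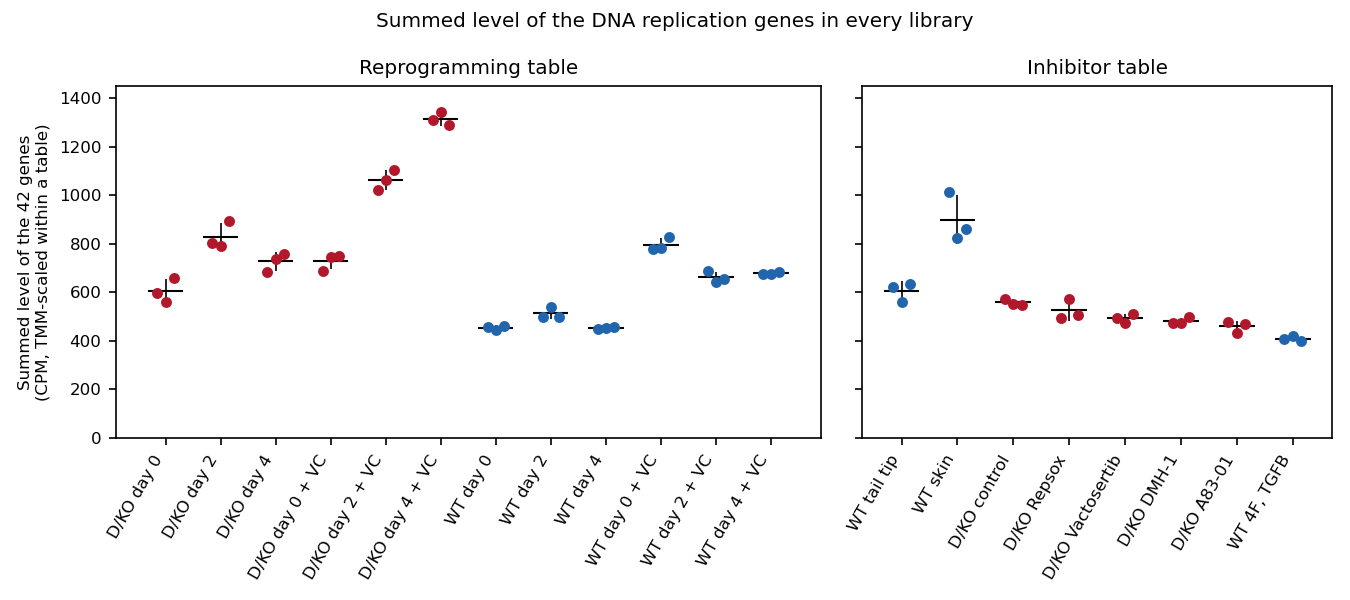
Summed level of the 42 genes in every library, in TMM-scaled CPM within each table (points; bar, mean; line, SD; 3 libraries a group; D/KO red, WT blue). The 3 D/KO libraries at day 4 with VC lie above all other reprogramming libraries. In the other panel the 3 WT skin libraries lie highest, with WT skin replicate 1 above the other 2.

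Before doxycycline, D/KO cells stood above WT cells at most of these genes. Of the 42 genes, 24 were higher and 3 lower in D/KO than in WT cells at day 0 by edgeR at an adjusted p under 0.05, the threshold used throughout, against 22.1% and 21.1% of the 15832 genes tested. The median difference was 0.55 on the log2 scale, against -0.020 over all genes. Mcm5, a subunit of the helicase, was at 16.6/14.1/20.6 CPM in D/KO and 4.47/3.49/4.44 CPM in WT libraries, a difference of 2.05 (SE 0.19, adjusted p = 2.84e-11). Cdc6, the loading ATPase, was at 4.13/2.35/3.24 against 1.05/0.591/1.17 CPM, a difference of 1.77 (SE 0.36, adjusted p = 0.000158). Cdt1, its partner in loading, was at 8.51/8.92/10.96 against 2.38/3.87/2.35 CPM, a difference of 1.72 (SE 0.21, adjusted p = 2.75e-08). For these 3 the groups did not overlap. The 3 genes called lower were Rfc1, the large subunit of the clamp loader, at -0.63 (SE 0.17, adjusted p = 0.00297), Orc6 at -0.41 (SE 0.16, adjusted p = 0.0321) and Pola2, the B subunit of polymerase α, at -0.38 (SE 0.15, adjusted p = 0.0364). With plain library totals in place of TMM, which moved the median of all genes to -0.22, 24 and 3 became 17 and 4.

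Endothelial markers also differed between the lines at day 0, at 631 to 730 summed CPM in D/KO and 14.7 to 17.3 CPM in WT cells. The part of other cell types in the difference was not tested.

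In D/KO cells, part of the replication genes was higher after 2 days of doxycycline, and at day 4 few remained above day 0. At day 2, 17 of 42 were higher and 1 lower than at day 0, against 14.3% and 13.2% of all genes, with a median of 0.34. At day 4, 5 were higher and 1 lower, against 18.3% and 18.7%, with a median of 0.0051, so that the share called higher was below that of all genes. The count at day 2 was between 10 and 14 when any 1 library was left out. It was 10 without day 0 replicate 1, without day 0 replicate 2 or without day 2 replicate 3, and 11 without day 2 replicate 1. With plain totals 10 members were higher at day 4, a count with no share of all genes beside it.

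By role, the genes called at day 2 in D/KO cells were 5 of 12 of the helicase (Mcm2, Mcm4, Mcm6, Mcm7 and Mcm10), 0 of 5 of licensing, 4 of 6 of the clamp and its loader, 3 of 7 of the polymerases, Lig1, Rrm1, Rrm2, Tk1 and Rpa1. Rrm2, the small subunit of ribonucleotide reductase that is made in S phase, rose most, from 38.7/37.3/51.5 CPM to 101/101/149 CPM, a change of 1.46 (SE 0.20, adjusted p = 2.86e-07). Tk1, thymidine kinase, went from 10.2/7.27/9.78 to 19.95/21.5/19.6 CPM, a change of 1.16 (SE 0.19, adjusted p = 5.92e-06). Mcm10, a helicase activator, went from 2.26/1.701/2.06 to 3.62/2.44/4.58 CPM, a change of 0.82 (SE 0.31, adjusted p = 0.0466). For each of these the day 2 libraries lay above those of day 0. The gene that fell was Dut, the dUTPase, from 34.4/21.1/20.7 CPM to 15.6/14.3/17.01 CPM, a change of -0.70 (SE 0.20, adjusted p = 0.00671). Day 0 replicate 1 stood well above the other 2, and without it Dut was at -0.42 and was not called (adjusted p = 0.138 by edgeR).

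At day 4 the genes still above day 0 in D/KO cells were Rrm2, Rfc4, Pcna, Rrm1 and Rpa1. Rrm2 was at 81.2/85.2/135 CPM, 1.24 (SE 0.20, adjusted p = 3.05e-06). Rfc4, a small clamp loader subunit, was at 5.92/5.49/4.48 CPM after 2.58/2.82/3.71 CPM, 0.80 (SE 0.22, adjusted p = 0.00317). Pcna, the sliding clamp, was at 34.7/31.3/30.97 CPM after 17.5/23.2/22.98 CPM, 0.60 (SE 0.14, adjusted p = 0.000561). These 3 had no library at day 4 as low as any at day 0. Dut was at 13.95/18.03/13.2 CPM, -0.75 (SE 0.20, adjusted p = 0.00236), a call that was lost without day 0 replicate 1, at -0.47 (adjusted p = 0.0689 by edgeR). From day 2 to day 4 there were 5 genes that fell and 0 that rose, against 9.57% of all genes in either direction, with no share given for falls alone. Those that fell were Tk1 (-0.81), Gins2 (-0.64), Mcm6 (-0.59), Chaf1a (-0.56) and Mcm2 (-0.41). That count was 1 without day 2 replicate 3 or without day 4 replicate 1, and 3 without day 2 replicate 2 or day 4 replicate 3. It was 1 when only the groups compared were fitted, 2 with plain totals and 3 with RLE factors or with no filter on low counts.

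With VC most of the 42 genes rose with doxycycline in D/KO cells. Against day 0 with VC, 23 of 42 were higher at day 2 and 30 at day 4, with 0 lower at either day, against 23.8% higher and 23.6% lower of all genes at day 2 and 27.9% and 26.2% at day 4. By edgeR at an unadjusted p under 0.05, 0 members were lower at either day. The median changes were 0.50 and 0.75. Leaving out any 1 library gave 21 to 23 and 26 to 29 members called. Plain totals moved the median of all genes to 0.24 and 0.38 and gave 27 and 40 members higher. The shares of all genes called with plain totals are not given here, so these counts have none beside them.

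In the helicase group, 8 of 12 genes were called higher at day 4 with VC. Mcm5 went from 13.5/14.7/12.6 CPM at day 0 with VC to 26.7/30.7/35.3 at day 2 and 47.3/50.9/43.2 at day 4, a change of 1.79 (SE 0.17, adjusted p = 2.44e-11) by day 4. Mcm10 went from 1.75/2.79/2.18 to 5.67/4.91/7.44 and 11.9/9.53/8.27 CPM, 2.15 (SE 0.31, adjusted p = 2.26e-07), the largest change of the 42. In both, every library at day 2 lay above day 0 and every library at day 4 above day 2. The helicase activators Cdc45, Gins2, Gins3 and Gins4 did not pass. Cdc45 was at 6.09/4.67/4.63 CPM at day 0 and 6.29/6.13/6.69 CPM at day 4, a log2 difference of 0.31, and the differences of Gins2, Gins3 and Gins4 were 0.12, 0.12 and 0.021. Gins1 passed at 1.04 (SE 0.40, adjusted p = 0.0272) on few counts.

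In the licensing group, Cdc6 and Cdt1 rose and Gmnn, Orc1 and Orc6 did not pass the test. Cdc6 went from 1.68/2.64/2.74 CPM to 6.77/6.63/5.93 at day 2 and 8.93/8.25/7.64 CPM at day 4, 1.82 (SE 0.32, adjusted p = 1.12e-05). Cdt1 went from 8.999/8.51/9.19 to 15.6/22.8/17.1 and 25.004/29.3/24.7 CPM, 1.56 (SE 0.19, adjusted p = 8.41e-09). Gmnn, the inhibitor of Cdt1, was at 3.95/5.65/3.298 CPM at day 0, 4.11/3.67/3.25 at day 2 and 6.03/5.35/5.899 CPM at day 4, and its change of 0.42 (SE 0.28, adjusted p = 0.199) was not called. Cdc6 and Cdt1 separated between each pair of days, while Gmnn separated between day 2 and day 4 and overlapped with day 0 at both.

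Among the clamp, its loader and the polymerases, 11 of 13 genes were called higher at day 4 with VC. Pole, the catalytic subunit of polymerase ε, went from 5.24/9.26/8.701 CPM to 17.8/15.4/14.7 and 31.1/24.96/22.9 CPM, 1.77 (SE 0.21, adjusted p = 4.27e-09). Pola1, the catalytic subunit of polymerase α, went from 7.45/9.49/8.98 to 21.7/25.5/30.8 and 28.4/26.97/23.6 CPM, 1.59 (SE 0.17, adjusted p = 1.3e-09) at day 2, which was the largest change at that day, and 1.61 at day 4. Pcna went from 29.3/24.4/27.7 to 41.9/44.2/37.8 and 41.3/55.05/59.6 CPM, 0.94 (SE 0.14, adjusted p = 3.94e-07). Rfc1 went from 35.8/28.2/34.4 to 48.2/42.2/60.1 and 69.8/41.1/52.04 CPM, 0.73 (SE 0.17, adjusted p = 0.00046), with its day 4 libraries spread between 41.1 and 69.8. The 2 not called were Rfc2 (0.08) and Pole2 (0.73). In the 4 genes given by library, all libraries of day 2 and day 4 lay above those of day 0.

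All 5 genes of nucleotide supply passed at day 4 with VC. Rrm2 was at 42.5/50.5/56.1, 85.2/96.2/109.6 and 84.7/101/127 CPM at days 0, 2 and 4, 1.07 (SE 0.20, adjusted p = 1.78e-05). Tyms, thymidylate synthase, was at 11.8/13.3/13.2, 13.2/12.4/14.8 and 14.3/17.7/17.7 CPM, 0.38 (SE 0.15, adjusted p = 0.0378). Rrm1, the large subunit of the reductase and the member with the highest counts, was at 112/142/143 CPM at day 0 and 239/235/217 CPM at day 4, 0.80 (SE 0.091, adjusted p = 1.94e-09). The change was largest for Rrm2 and smallest for Tyms among those 3, and Dut, lower without VC, rose here by 0.52. Of the Rpa trimer, Rpa1 rose from 59.7/64.02/68.4 to 84.3/86.7/89.4 and 90.6/90.2/83.3 CPM, 0.46 (SE 0.081, adjusted p = 9.41e-06), while Rpa2 and Rpa3, at 0.30 and -0.11, did not pass. Of the 42, Pcna, Rfc4, Rrm1, Rrm2 and Rpa1 were called higher in all 4 D/KO comparisons with day 0, and 12 in none of them.

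From day 2 to day 4 with VC, 6 D/KO genes rose and 0 fell, against 15.6% of all genes in either direction, with no share given for rises alone. They were Pole (0.72), Mcm5 (0.61), Rrm1 (0.55), Cdt1 (0.51), Mcm3 (0.50) and Lig1 (0.48), and 39 of 42 had a value above 0. The count was 2 without day 2 replicate 1, plain totals gave 13, and 10 were called when only the groups compared were fitted.

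The summed level of the 10 keratinocyte markers moved with doxycycline in the same libraries. Without VC it was 19.5 to 27.7 CPM at day 0, 350.3 to 393 at day 2 and 634 to 759 CPM at day 4 in D/KO cells, while the 10 fibroblast markers summed to 84975 to 123840, 57125 to 58531 and 41480 to 42770 CPM. With VC the keratinocyte sum went from 16.4 to 23.4 CPM at day 0 with VC to 1831 to 2115 CPM at day 4 with VC in D/KO cells, and fibroblast markers from 185792 to 256160 CPM down to 34961 to 36036 CPM. Krt15 was at 0 in D/KO cells at day 2 and day 4 with VC. In WT cells the keratinocyte sum reached 382 to 433 CPM. Endothelial markers in WT cells without VC summed to 14.7 to 17.3, 62.0 to 66.8 and 95.3 to 95.8 CPM at days 0, 2 and 4. With VC they summed to 4.73 to 7.08, 94.7 to 102 and 98.1 to 116 CPM. Kdr of that list was at 0 in WT cells at day 4 with and without VC. In D/KO cells without VC the endothelial sum was 631 to 730, 487 to 561 and 331 to 350 CPM at days 0, 2 and 4. With VC it was 224 to 266, 199 to 223 and 383 to 515 CPM. Muscle markers in D/KO cells went from 42.3 to 58.4 CPM at day 0 with VC to 3.70 to 5.46 CPM at day 4 with VC. Without VC they were at 33.1 to 79.9 CPM at day 0 and 35.5 to 44.7 CPM at day 4. The part of these cell states in the replication genes was not tested.

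**Figure D2:**
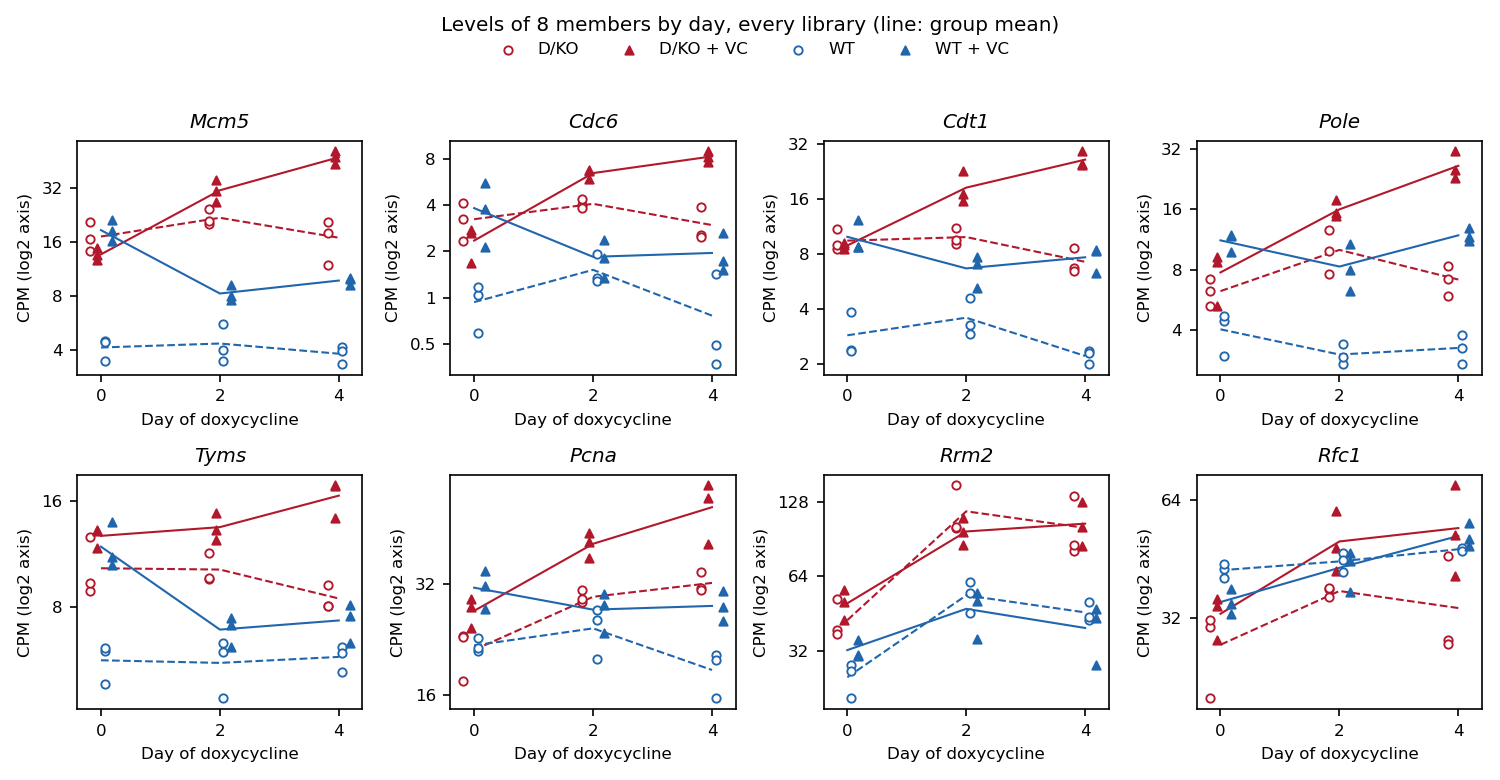
Levels of Mcm5, Cdc6, Cdt1, Pole, Tyms, Pcna, Rrm2 and Rfc1 in every library by day of doxycycline (CPM on a log2 axis; red, D/KO; blue, WT; filled triangles and solid lines, with VC; open circles and dashed lines, without; lines join the means of 3 libraries). Mcm5 reaches 43.2 to 50.9 CPM in D/KO cells with VC, while in WT cells with VC it is at 16.1 to 21.2 CPM at day 0 and it is at 9.22 to 10.1 CPM by day 4.

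In WT cells without VC, few of the 42 genes changed after doxycycline. At day 2, 1 was higher and 0 lower, against 6.26% and 4.30% of all genes, and at day 4 2 were higher and 4 lower, against 11.7% and 12.8%. At day 2 edgeR gave 0 members lower at an unadjusted p under 0.05 and DESeq2 gave 1 member called in all. The gene higher at day 2 was Rrm2, at 28.1/20.5/26.4 CPM at day 0 and 60.4/54.6/45.6 CPM at day 2, 1.10 (SE 0.20, adjusted p = 0.000165). It was still higher at day 4, at 42.7/50.5/43.8 CPM, 0.87 (SE 0.20, adjusted p = 0.00126), and so was Pola1, at 5.85/5.21/4.39 and then 7.62/7.68/6.73 CPM, 0.51 (SE 0.18, adjusted p = 0.0375). Those 2 separated from day 0 in every library. Chaf1b, the middle subunit of the histone chaperone CAF-1, fell from 1.44/1.24/1.99 to 0.512/0.583/0.607 CPM, -1.45 (SE 0.30, adjusted p = 0.000396). Gins2 fell from 4.81/6.61/5.46 to 4.09/2.703/3.15 CPM, -0.76 (SE 0.21, adjusted p = 0.00751), Dut from 16.3/16.4/17.7 to 10.6/12.03/11.1 CPM, -0.58 (SE 0.20, adjusted p = 0.0326), and Rrm1 by 0.29 (SE 0.093) on the log2 scale. The 4 also separated, and the count was 2 at day 2 without day 2 replicate 1, and at day 4 it was 2 without day 0 replicate 2 and 3 without day 4 replicate 1 or replicate 2.

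The other genes with values in every library did not pass the test against day 0 in WT cells without VC. Mcm5 was at 3.99/5.602/3.47 CPM at day 2 and 4.14/3.34/3.97 at day 4, Cdc6 at 1.35/1.28/1.93 and 1.43/0.371/0.497, and Cdt1 at 2.91/4.57/3.25 and 2.35/2.28/1.99 CPM. Pcna was at 21.1/21.5/22.9 CPM at day 0, 25.5/27.3/20.1 at day 2 and 15.7/20.5/19.98 at day 4, and Rpa1 at 37.8/36.8/39.6, 38.7/42.5/36.6 and 40.8/40.5/39.9 CPM. Rfc1 was at 42.6/40.5/43.9, 46.98/45.1/41.8 and 48.1/48.2/47.5 CPM, Tyms at 6.02/6.12/4.85, 4.42/5.96/6.33 and 6.19/5.94/5.24 CPM, Pole at 4.42/2.95/4.698, 2.69/2.93/3.41 and 3.79/2.703/3.26 CPM and Gmnn at 1.88/1.45/1.48, 1.89/1.44/1.16 and 1.33/0.583/0.938 CPM. From day 2 to day 4, 9 genes fell and 0 rose, against 21.5% of all genes in either direction, with no share given for falls alone. The genes that fell were led by Chaf1b (-1.0003), Dut (-0.87) and Rpa3 (-0.83), whose day 4 libraries lay below those of day 2. The others were Gins2, Rfc4, Tk1, Cdt1, Rfc3 and Pcna. The count was 3 without day 2 replicate 2, 5 without day 4 replicate 2 and 4 without day 4 replicate 3, and 5 when only the groups compared were fitted.

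With VC the WT cells started from a raised level and most called genes fell from it. Against day 0 with VC, 17 of 42 were lower and 1 higher at day 2, against 13.7% and 13.8% of all genes, and 15 lower and 3 higher at day 4, against 22.0% and 22.7%. The median changes were -0.41 and -0.27. Set against day 0 without VC instead, the same libraries gave 22 higher and 2 lower at day 2, against 19.5% and 17.8% of all genes, and 24 higher and 1 lower at day 4, against 20.3% and 18.9%, so the direction depends on which day 0 is used. With plain totals day 4 gave 7 higher and 7 lower and day 2 gave 2 higher and 12 lower. Without day 0 replicate 1 the count at day 2 was 11, all lower.

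Among the genes that fell furthest in WT cells with VC were Gmnn, Chaf1b, Pole2, Mcm5, Tk1 and Fen1. Gmnn was at 3.85/4.36/4.85 CPM at day 0 with VC, 1.78/1.04/1.22 at day 2 and 2.38/1.81/2.42 CPM at day 4, -1.69 (SE 0.31, adjusted p = 5.19e-05) at day 2. Chaf1b was at 10.4/8.42/9.36, 3.62/3.52/4.07 and 2.85/4.17/2.58 CPM, -1.33 (SE 0.22, adjusted p = 7.94e-06) and then -1.55 (SE 0.22). Pole2, a subunit of polymerase ε, was at 1.896/2.09/3.78 and 1.104/1.04/1.09 CPM, -1.25 (SE 0.38, adjusted p = 0.0119) at day 2. In these genes every library with doxycycline lay below those of day 0, except Pole2 at day 4, which reached 1.99 CPM and was not called. Mcm5 was at 16.1/21.2/18.4, 9.197/7.59/7.97 and 9.94/9.22/10.1 CPM, -1.17 (SE 0.17, adjusted p = 1.84e-06) at day 2. Tk1 was at 13.8/10.6/14.7 and 4.18/6.58/6.78 CPM, -1.15 (SE 0.19, adjusted p = 7.26e-06) at day 4, and Fen1, the flap nuclease, at 0.632/0.799/1.86 and 0.291/0.658/0.269 CPM, -1.41 (SE 0.53, adjusted p = 0.0286), with overlapping libraries and few counts.

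Of the further genes with values in every library, Cdc6 was at 2.15/5.53/3.78, 1.35/1.81/2.37 and 1.51/2.63/1.72 CPM, with day 0 overlapping both later days. Cdt1 was at 8.78/8.72/12.3, 7.73/7.04/5.23 and 6.28/8.28/8.45 CPM, and Tyms at 11.1/10.6/13.9, 7.48/6.16/7.12 and 6.33/7.57/8.12 CPM. Those 3 passed as lower at day 2, and Cdc6 and Tyms also at day 4. Pcna was at 31.8/27.5/34.9, 30.2/28.1/23.7 and 25.5/27.7/30.8 CPM and Pole at 9.79/11.8/11.9, 7.91/6.21/10.7 and 12.8/11.1/11.6 CPM, neither of them called. Rpa1 was at 68.997/65.6/72.03, 62.3/56.8/66.5 and 60.6/55.5/58.3 CPM, called at day 4 at -0.24 (SE 0.081, adjusted p = 0.0133), a call that plain totals end, at 0.039. Against the majority, Rrm2 was higher at day 2, at 30.4/30.8/35.3 and then 54.9/50.9/35.8 CPM, 0.55 (SE 0.20, adjusted p = 0.0349), and at 28.1/47.02/43.4 CPM at day 4. At day 4 Pola1 was higher, at 7.27/8.91/12.7 and 17.96/15.4/14.8 CPM, 0.74 (SE 0.17, adjusted p = 0.000602). So were Pola2, at 12.6/12.6/10.6 and 18.6/17.8/19.4 CPM, 0.64 (SE 0.14, adjusted p = 0.000347), and Rfc1, at 34.8/37.9/32.7, then 37.3/44.8/46.8 at day 2 and 55.8/48.8/50.9 CPM, 0.56 (SE 0.17, adjusted p = 0.007). These 3 separated in every library. From day 2 to day 4 with VC 2 genes rose, Pola2 (0.70) and Lig1 (0.52), and 2 fell, Rrm1 (-0.41) and Gins4 (-0.40), against 20.1% of all genes in either direction. The count of 4 was 2 without day 2 replicate 1 or day 4 replicate 3, and 7 without day 2 replicate 3 or when only the groups compared were fitted. Plain totals gave 9 rising and 1 falling.

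**Figure D3:**
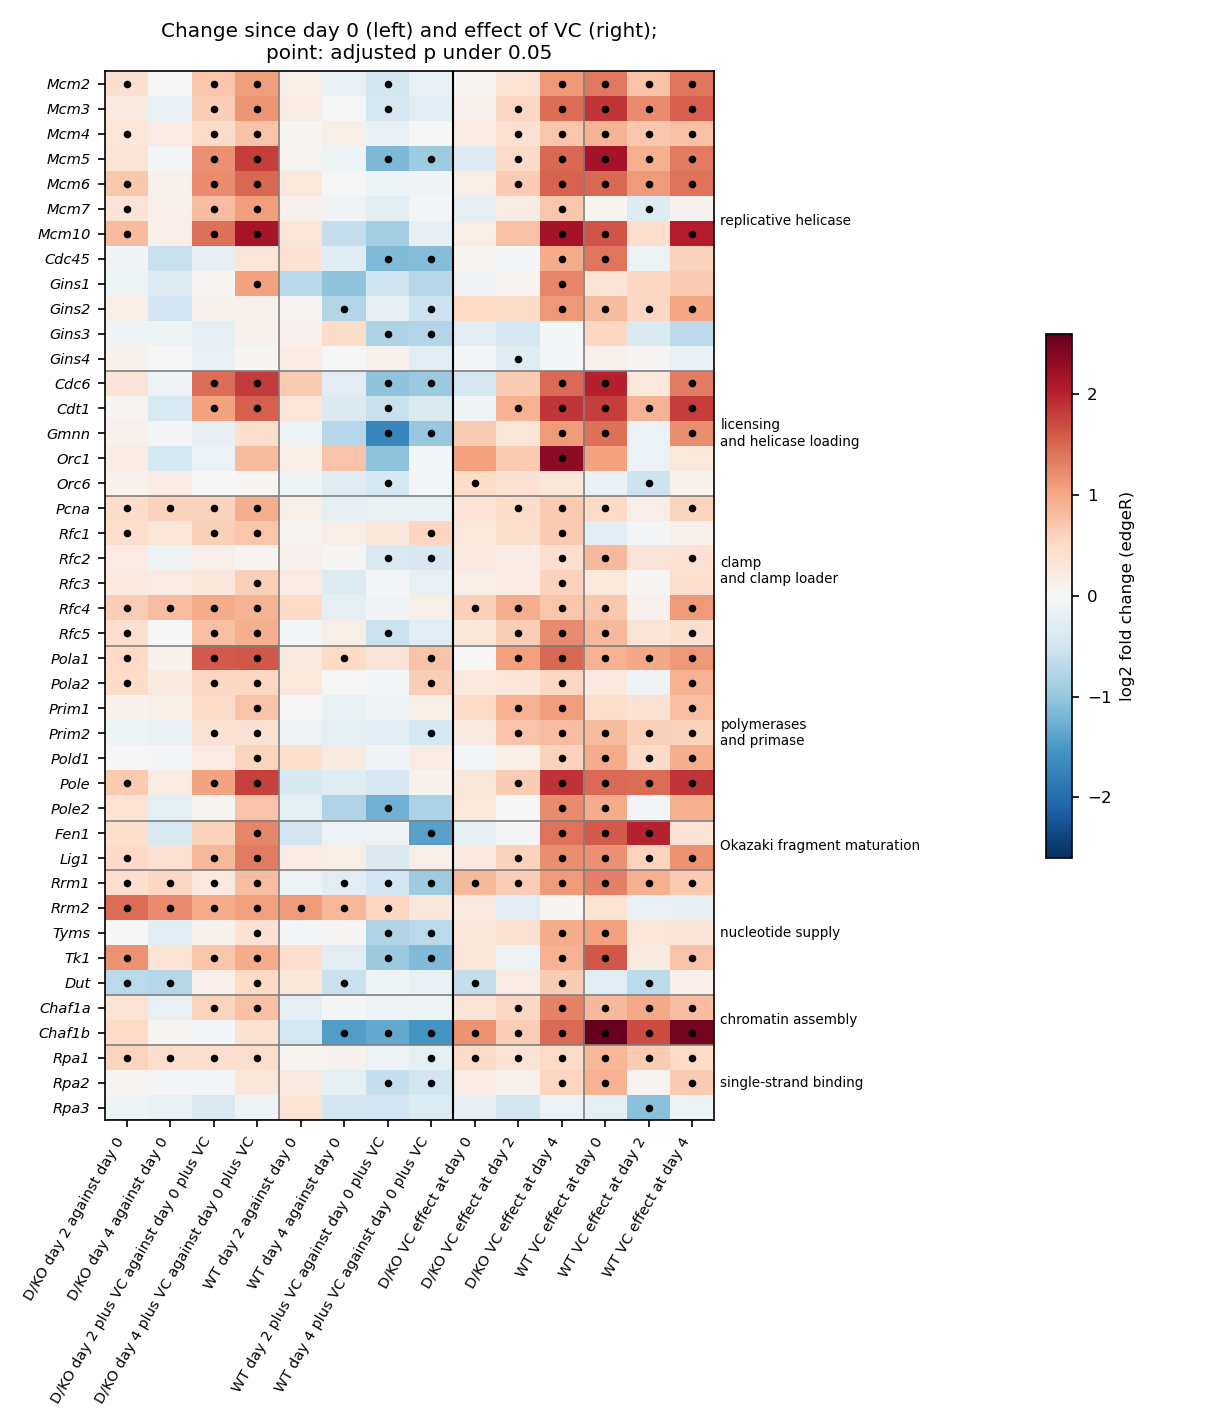
Log2 fold changes (edgeR) of the 42 genes, grouped by role, for each day against day 0 of the same series (left of the black line) and for VC at each day (right); red higher, blue lower, points at an adjusted p under 0.05. The D/KO columns with VC hold 23 and 30 points, all higher, the WT columns with VC hold 17 and 15 lower points, and the column of VC in WT cells at day 0 holds 29 higher points.

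The difference between the lines was tested as the D/KO change minus the WT change. Without VC few genes differed: 3 were higher and 1 lower at day 2, against 6.54% of all genes in either direction. At day 4, 5 were higher and 0 lower, against 14.3% in either direction. Counted in either direction, the share was near that of all genes at day 2 and below it at day 4. All 5 at day 4 were higher, and the share of all genes called higher alone is not given here. At day 4 edgeR gave 0 lower at an unadjusted p under 0.05. With VC, 24 were higher at day 2 and 30 at day 4, against 6.86% and 13.9% of all genes called higher, with 0 lower at an unadjusted p under 0.05 at either day. The medians with VC were 0.78 and 0.97.

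The genes that differed without VC were Pole (1.10, SE 0.32, adjusted p = 0.0294), Rrm1, Rpa1 and, lower, Dut (-0.99, SE 0.28, adjusted p = 0.0239) at day 2, and Chaf1b (1.52, SE 0.38, adjusted p = 0.00478), Rfc4, Pcna, Rrm1 and Rpa1 at day 4. The 4 at day 2 became 2, both higher, with Dut no longer called (-0.98 to -0.71), without D/KO day 0 replicate 1, D/KO day 2 replicate 2, WT day 0 replicate 1 or WT day 2 replicate 2, and the 5 at day 4 became 3 without D/KO day 4 replicate 1 or WT day 4 replicate 3, and also 3 when only the groups compared were fitted. With plain totals Dut was not called at day 2, which left 3 higher. With VC the differences were largest for Cdc6, at 2.51 (SE 0.47, adjusted p = 0.000212) at day 2 and 2.78 (SE 0.46, adjusted p = 1.76e-05) at day 4, and for Mcm5, at 2.35 (SE 0.24, adjusted p = 9.19e-09) and 2.72 (SE 0.24, adjusted p = 7.65e-11). At day 4 with VC 8 genes were higher in D/KO, lower in WT and called for the difference, namely Mcm5, Cdc6, Prim2, Fen1, Rrm1, Tyms, Tk1 and Rpa1. At day 2 with VC there were also 8, namely Mcm2, Mcm3, Mcm5, Cdc6, Cdt1, Rfc5, Rrm1 and Tk1. When day 0 without VC was the baseline of both lines, 9 genes differed at each day, 7 higher and 2 lower at day 2 and all higher at day 4. The shares of all genes were then 20.4% and 20.8% in either direction, near those of the members, so that these counts depend on which day 0 is used. Mcm5 was then at -0.14 at day 2 and 0.23 at day 4 and Cdc6 at 0.027 and 0.302, and neither was called.

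VC alone, before any doxycycline, raised the replication genes of WT cells and few of those of D/KO cells. How long the day 0 libraries were exposed to VC is not given in the sample information used here. In WT cells 29 of 42 were higher and 0 lower, against 15.1% and 14.4% of all genes, with a median of 0.89 and 0 lower at an unadjusted p under 0.05. In D/KO cells 5 were higher and 1 lower, against 12.1% and 14.0%, with a median of 0.23. With plain totals, which moved the median of all genes to -0.29 and -0.18, these were 26 and 4 in WT and 3 and 3 in D/KO cells. The D/KO count of 6 was 10 without day 0 replicate 3 and 3, all higher, when only the groups compared were fitted.

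In WT cells Chaf1b moved most with VC, from 1.44/1.24/1.99 to 10.4/8.42/9.36 CPM, 2.58 (SE 0.23, adjusted p = 6.97e-11). Mcm5 moved from 4.47/3.49/4.44 to 16.1/21.2/18.4 CPM, 2.16 (SE 0.19, adjusted p = 1.83e-11), and Cdc6 from 1.05/0.591/1.17 to 2.15/5.53/3.78 CPM, 2.02 (SE 0.36, adjusted p = 4.26e-05). Gmnn rose by 1.44 (SE 0.30), Cdt1 by 1.79 (SE 0.21), Pole by 1.47 (SE 0.22) and Tyms by 1.07 (SE 0.16) on the log2 scale. All 3 WT libraries with VC lay above the 3 without it at each of these 7 genes, while Rrm2 at 0.36 (SE 0.20) and Rfc1 at -0.27 (SE 0.17) did not pass. In D/KO cells Mcm5 was at 16.6/14.1/20.6 CPM without and 13.5/14.7/12.6 CPM with VC, -0.33 (SE 0.17, adjusted p = 0.16), and Cdc6 at 4.13/2.35/3.24 and 1.68/2.64/2.74 CPM, -0.46 (SE 0.34, adjusted p = 0.347), both not called. The D/KO genes that rose were Chaf1b (1.17, SE 0.22, adjusted p = 9.49e-05), Rrm1 (0.83, SE 0.092, adjusted p = 5.7e-09), Rfc4, Rpa1 and Orc6, and Dut fell by 0.62 (SE 0.20) on the log2 scale. The Dut call was lost without day 0 replicate 1 (-0.34, adjusted p = 0.243 by edgeR) or without day 0 with VC replicate 2 (-0.45).

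The difference of the 2 VC effects at day 0 was tested after these counts had been seen. It was lower in D/KO than in WT cells for 20 of 42 genes, against 8.35% of all genes, and higher for 1, Orc6, with a median of -0.64. With only the 4 groups compared in the fit it was lower for 13 and higher for 0. Mcm5 differed by -2.49 (SE 0.25, adjusted p = 1.41e-08), Cdc6 by -2.48 (SE 0.50, adjusted p = 0.000633) and Cdt1 by -1.88 (SE 0.29, adjusted p = 1.72e-05). Orc6, a subunit of the origin recognition complex, differed by 0.65 (SE 0.22, adjusted p = 0.0401). Fibroblast markers summed to 84975 to 123840 CPM without and 185792 to 256160 CPM with VC in D/KO cells at day 0, and to 54830 to 56602 and 158283 to 174254 CPM in WT cells. Endothelial markers summed to 631 to 730 and 224 to 266 CPM in D/KO cells and 14.7 to 17.3 and 4.73 to 7.08 CPM in WT cells, and muscle markers in WT cells to 14.1 to 17.4 and 40.3 to 49.1 CPM, with Myod1, Myog, Myh3 and Pax7 at 0. Their part in these differences was not tested.

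During doxycycline more genes were called for VC in D/KO cells than at day 0. At day 2, 17 of 42 were higher and 1 lower with VC than without, against 11.1% and 14.2% of all genes. At day 4, 37 were higher and 0 lower, against 16.8% and 17.7%, with a median of 1.03 and 0 lower at an unadjusted p under 0.05. The gene lower at day 2 was Gins4, at 18.5/21.6/20.1 CPM without and 16.3/17.1/14.7 CPM with VC, -0.32 (SE 0.12, adjusted p = 0.047). The 3 with the largest effect at day 4 were Orc1, at 0.38/0.523/1.24 CPM without and 4.28/3.57/2.95 CPM with VC, 2.32 (SE 0.43, adjusted p = 5.1e-05), Mcm10, at 2.497/1.93/2.16 and 11.9/9.53/8.27 CPM, 2.17 (SE 0.30, adjusted p = 4.07e-07), and Pole, at 8.31/5.904/7.18 and 31.1/24.96/22.9 CPM, 1.89 (SE 0.21, adjusted p = 4.05e-09). The groups did not overlap in any of the 4. The 5 genes not called at day 4 were Gins3, Gins4, Orc6, Rrm2 and Rpa3. Rrm2, which rose with doxycycline alone, was at 81.2/85.2/135 CPM without and 84.7/101/127 CPM with VC, 0.057 (SE 0.19, adjusted p = 0.853).

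In WT cells the effect of VC was present at each day. At day 2, 17 were higher and 4 lower, against 13.5% and 13.0% of all genes, and at day 4 27 were higher and 0 lower, against 12% and 10.4%, with 1 lower at an unadjusted p under 0.05. At day 2 Chaf1b was at 1.08/1.03/1.32 CPM without and 3.62/3.52/4.07 CPM with VC, 1.71 (SE 0.25, adjusted p = 2.95e-06), and Pole at 2.69/2.93/3.41 and 7.91/6.21/10.7 CPM, 1.45 (SE 0.23, adjusted p = 8.11e-06). Fen1 had the largest effect at day 2, 2.00 (SE 0.56, adjusted p = 0.00682), on few counts. In these genes the groups with and without VC did not overlap. The 4 lower at day 2 were Rpa3, the small Rpa subunit (-1.09, SE 0.21, adjusted p = 0.000165), Dut (-0.67), Orc6 (-0.53) and Mcm7 (-0.33). At day 4 the effect was largest for Chaf1b, at 0.512/0.583/0.607 and 2.85/4.17/2.58 CPM, 2.48 (SE 0.28, adjusted p = 1.58e-08), before Mcm10, at 0.307/0.424/0.552 and 3.02/1.097/1.24 CPM, 2.04 (SE 0.40, adjusted p = 0.000172), and Pole, at 1.86 (SE 0.22, adjusted p = 4.63e-08).

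Subunits of 1 complex did not stand at 1 level. Per kilobase of the deposited gene length, Mcm4 was the highest of Mcm2 to Mcm7 in 17 of the 20 groups and Mcm7 in the other 3. In those 3 groups the libraries of Mcm4 and Mcm7 overlapped. In WT cells at day 0 the levels ran from 1.04 ± 0.14 CPM per kilobase for Mcm5 (SD, n = 3) to 6.27 ± 0.791 for Mcm7, a ratio of 6.05. In WT cells at day 0 with VC the highest was Mcm4 at 11.5 ± 0.965 and the lowest Mcm2 at 3.91 ± 0.293, a ratio of 2.94, and in D/KO cells at day 4 with VC the ratio was 2.14. With A83-01 it was 7.14, next to 3.12 in control D/KO cells. Gins4 stood at 11.8 ± 0.961 CPM per kilobase in WT cells at day 0 and 13.7 ± 0.848 in D/KO cells at day 4 with VC, and its level was 12.5 to 33.1 times that of the lowest GINS subunit over the 20 groups. Of the clamp loader, Rfc1 was highest in every group. Of the Rpa trimer, Rpa2 was lowest in 19 of 20 groups, the exception being D/KO cells at day 4 with VC, where Rpa3 was lowest at 5.36 ± 0.398 next to 5.53 ± 0.581 for Rpa2, values within their spread. In D/KO cells at day 2 with VC Rpa2 was lowest at 4.39, but its libraries and those of Rpa3 also overlapped. Over all members, the highest level in D/KO cells at day 4 with VC was that of Rrm2, 37.6 ± 7.697, before Pcna, 21.7 ± 3.97, and Rrm1, 20.9 ± 1.07, and the latter 2 did not differ beyond their spread. The lowest was Fen1, 0.827 ± 0.0775. Levels per length rest on the deposited exon lengths and are given with no test.

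**Figure D4:**
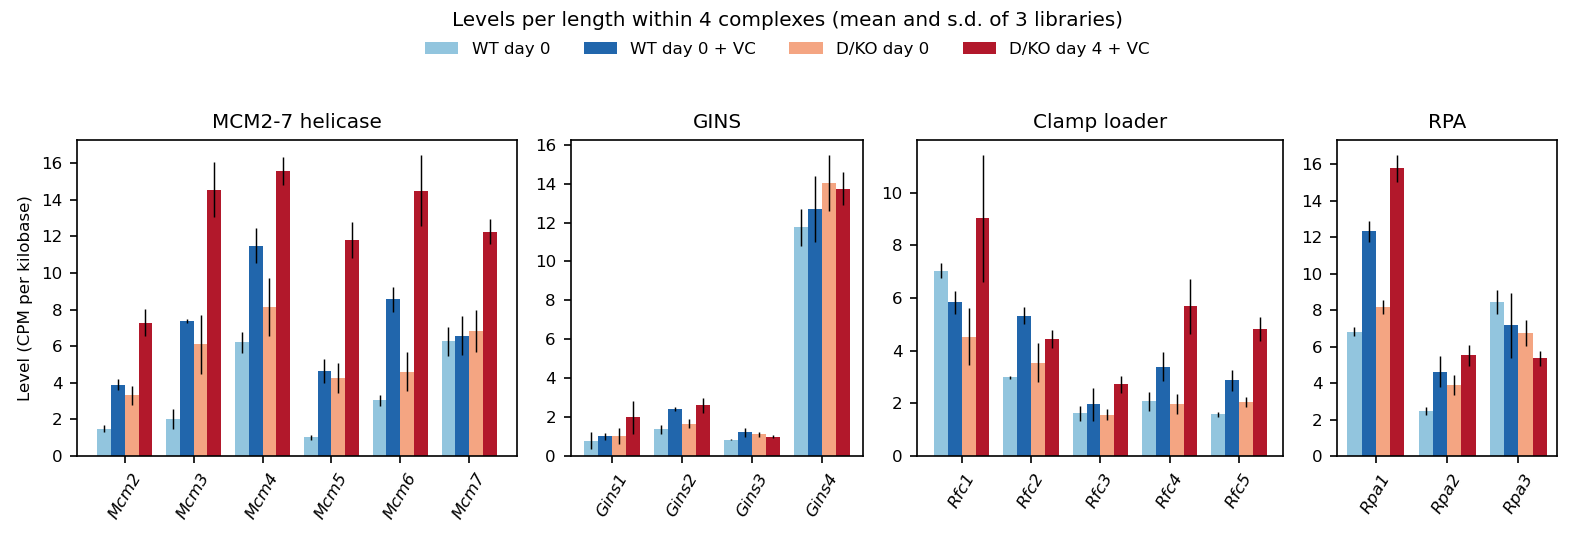
Levels per length (CPM per kilobase of deposited gene length; bars, mean of 3 libraries from 0; lines, SD) of the subunits of the Mcm2 to Mcm7 helicase, GINS, the clamp loader and Rpa in 4 groups. In WT cells at day 0 the lowest Mcm bar is Mcm5 at 1.04, and Gins4 stands above the other GINS subunits in each of the 4 groups.

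In D/KO cells a part of the replication genes was lower with A83-01 than in control cells, and few passed the test with the other 3 receptor kinase inhibitors. The summed level was 558.4 ± 13.2 CPM in control D/KO cells (SD, n = 3), 525.8 ± 42.2 with Repsox (496.2, 574.1 and 507.1 by library, against 548.7 to 573.4 in the controls), 493.2 ± 18.7 with Vactosertib, 481.4 ± 13.4 with DMH-1 and 459.9 ± 23.5 CPM with A83-01. With A83-01 16 of 42 genes were lower and 0 higher, against 13.9% of the 15652 genes tested called lower, with a median of -0.42 and 1 higher at an unadjusted p under 0.05. With Repsox 3 were lower and 1 higher, against 20.7% called in either direction. With Vactosertib 4 were lower and 0 higher, against 18.1%, and with DMH-1 3 lower and 0 higher, against 7.25%, with 0 higher at an unadjusted p under 0.05 with either. For these 3 compounds the share called in either direction was, with all groups in the fit, near or below that of all genes. The shares of all genes called lower alone are not given here for these 3. The medians were -0.18, -0.26 and -0.25. Plain totals, which moved the median of all genes by 0.15 with A83-01, left 9 lower and 1 higher there, and gave 2 lower and 2 higher with Repsox and 2 lower and 1 higher with Vactosertib. When only the groups compared were fitted, 10 genes were lower with Vactosertib and 2 with Repsox, with 0 higher, so that the Vactosertib count depends on which groups enter the fit. The shares of all genes in those fits are not given here. With no filter on low counts either gave 2, and DESeq2 gave 5 for DMH-1. Marker lists moved in the same libraries. The 10 fibroblast markers summed to 82905 to 89824 CPM in controls, 44290 to 46855 with A83-01, 41694 to 50951 with Repsox, 51587 to 55337 with Vactosertib and 71077 to 89582 CPM with DMH-1. The 6 endothelial markers summed to 309.7 to 344 CPM in controls and 150.3 to 191 CPM with A83-01, and the 10 keratinocyte markers to 13.4 to 19.9 and 29.5 to 35.6 CPM, with Krt14, Krt1 and Cdh1 at 0 in both groups. Their part in the replication genes was not tested.

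Tk1 was called lower with all 4 compounds. It was at 8.69/8.49/7.38 CPM in control D/KO cells, 5.29/4.897/5.59 with Repsox (-0.64, SE 0.16), 4.85/4.46/5.17 with Vactosertib (-0.77, SE 0.17), 3.85/4.31/5.33 with DMH-1 (-0.87, SE 0.17) and 3.96/3.93/2.85 CPM with A83-01 (-1.19, SE 0.17). Each treated library lay below the 3 controls. Cdc6 was at 2.26/1.805/2.302 CPM in controls and 0.731/0.458/0.628 CPM with A83-01, -1.80 (SE 0.39, adjusted p = 0.00133), and Mcm10 at 1.53/0.976/1.298 and 0.269/0.725/0.259 CPM, -1.60 (SE 0.55, adjusted p = 0.0343). Mcm5 was at 11.5/10.4/10.1 CPM in controls, 9.83/9.87/9.8005 with Repsox, 8.12/6.47/7.21 with Vactosertib, 5.92/7.82/7.27 with DMH-1 and 4.77/4.12/3.03 CPM with A83-01, -1.42 (SE 0.19, adjusted p = 4.95e-06), and passed with the latter 3 compounds. In these genes no A83-01 library reached a control. The other genes that fell with A83-01 were Mcm2, Mcm3, Mcm6, Cdt1, Cdc45, Gins2, Gins3, Rfc1, Prim2, Rrm2, Tyms and Rpa1.

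Rfc1 and the reductase subunits followed other orders. Rfc1 was at 31.3/35.2/38.2 CPM in controls, 22.5/15.2/24.2 with Repsox (-0.76, SE 0.17, adjusted p = 0.00267), 19.95/24.1/18.96 with Vactosertib (-0.73, SE 0.17, adjusted p = 0.00429), 27.4/27.4/27.9 with DMH-1 and 22.9/26.7/25.5 CPM with A83-01. Its lowest value was in Repsox replicate 2, the library in which long genes stood low. Rrm1, against the majority, was called higher with Repsox, at 74.01/69.2/61.9 CPM in controls and 81.4/87.04/88.8 CPM, 0.33 (SE 0.085, adjusted p = 0.00831). Rrm2 was at 24.02/22.6/26.03 CPM in controls, 17.4/21.2/19.8 with Repsox, 18.1/16.98/22.2 with Vactosertib, 11.8/12.9/16.5 with DMH-1 (-0.82, SE 0.14, adjusted p = 0.000758) and 14.3/14.1/18.7 CPM with A83-01. The 2 subunits of the reductase thus had different orders over the compounds. Pola1 was called lower with Vactosertib, at 5.24/7.51/7.67 and 4.04/4.95/4.28 CPM, -0.61 (SE 0.21, adjusted p = 0.0468), and Prim2, a primase subunit, with Repsox, at 11.3/11.8/11.6 and 9.48/8.64/8.32 CPM, -0.39 (SE 0.14, adjusted p = 0.0485).

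The remaining genes given in every library were Cdt1, Gmnn, Pcna, Pole, Tyms and Rpa1. Cdt1 was at 6.39/6.24/6.02 CPM in controls, 4.49/5.41/3.899 with Repsox, 4.799/3.82/5.64 with Vactosertib, 5.01/3.61/5.18 with DMH-1 and 2.77/2.94/3.81 CPM with A83-01. Tyms was at 9.71/9.46/8.499, 7.77/8.16/7.83, 7.93/8.02/7.73, 6.11/8.04/9.52 and 7.27/6.95/5.91 CPM in the same order, and Rpa1 at 45.8/46.9/51.3, 42.5/46.4/42.9, 41.6/42.6/45.5, 44.1/43.8/46.98 and 40.2/33.7/39.5 CPM. These 3 were lowest with A83-01 and passed only there. Pcna was at 27.98/25.4/23.8, 27.003/46.5/25.1, 28.7/24.9/30.3, 27.2/23.1/27.6 and 32.5/21.1/29.5 CPM, Gmnn at 3.24/2.59/2.66, 2.13/3.74/1.62, 1.81/1.59/2.09, 1.79/2.43/2.19 and 1.5003/1.64/2.51 CPM, and Pole at 3.96/5.46/6.197, 4.38/2.67/4.87, 4.13/4.61/3.97, 2.82/4.501/3.84 and 2.19/3.17/4.25 CPM. None of these 3 passed with any compound, and Pcna and Gmnn, which have short gene models, were highest among the D/KO libraries in Repsox replicate 2. Without that library Repsox gave 2 lower and 1 higher with a median of -0.30, with Rfc1 at -0.58 (adjusted p = 0.0194 by edgeR), Tk1 at -0.59 and Rrm1 at 0.31 still called and Prim2 at -0.38 not. The 4 genes called with Repsox were 2 without control replicate 3, and the 4 with Vactosertib were 2 without control replicate 2 or 3 or Vactosertib replicate 2 or 3.

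Compounds were compared at the same dose and time in 2 pairs. Repsox and Vactosertib at 0.1 µM differed at 0 of 42 genes by edgeR and by DESeq2, with 1 higher and 0 lower by edgeR at an unadjusted p under 0.05, and 0% of all genes were called. The interval of the difference was wide for single genes. For Tk1 the log2 difference, Repsox over Vactosertib, was 0.13 (95% interval -0.22 to 0.47), for Rfc1 -0.027 (95% interval -0.38 to 0.33), for Mcm5 0.44 (95% interval 0.061 to 0.81) and for Rrm1 0.16 (95% interval -0.017 to 0.34). Without Repsox replicate 2 these were 0.17, 0.14, 0.43 and 0.14, again with 0 genes called. The absence of a call does not show that the compounds act alike. A83-01 and DMH-1 at 1 µM differed at 4 genes called lower and 1 called higher with A83-01, against 20.5% of all genes in either direction. The lower ones were the helicase subunits Mcm2 (-0.85, SE 0.18, adjusted p = 0.00153), Mcm5 (-0.82, SE 0.19, adjusted p = 0.00286), Mcm6 (-0.72) and Mcm3 (-0.66). Mcm2 was at 6.42/9.28/7.097 CPM with A83-01 and 13.4/14.4/13.3 CPM with DMH-1, Mcm6 at 16.4/9.51/12.6 and 19.3/23.8/20.4 CPM, and the libraries did not overlap. Rrm1 was higher with A83-01, at 78.1/74.3/83.5 CPM against 59.5/60.5/54.999 CPM, 0.43 (SE 0.085, adjusted p = 0.000785). Mcm4 and Mcm7, of the same helicase, differed by 0.22 (95% interval 0.042 to 0.40) and -0.021 (95% interval -0.23 to 0.19) and did not pass. Plain totals gave 4 lower and 2 higher for this pair.

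**Figure D5:**
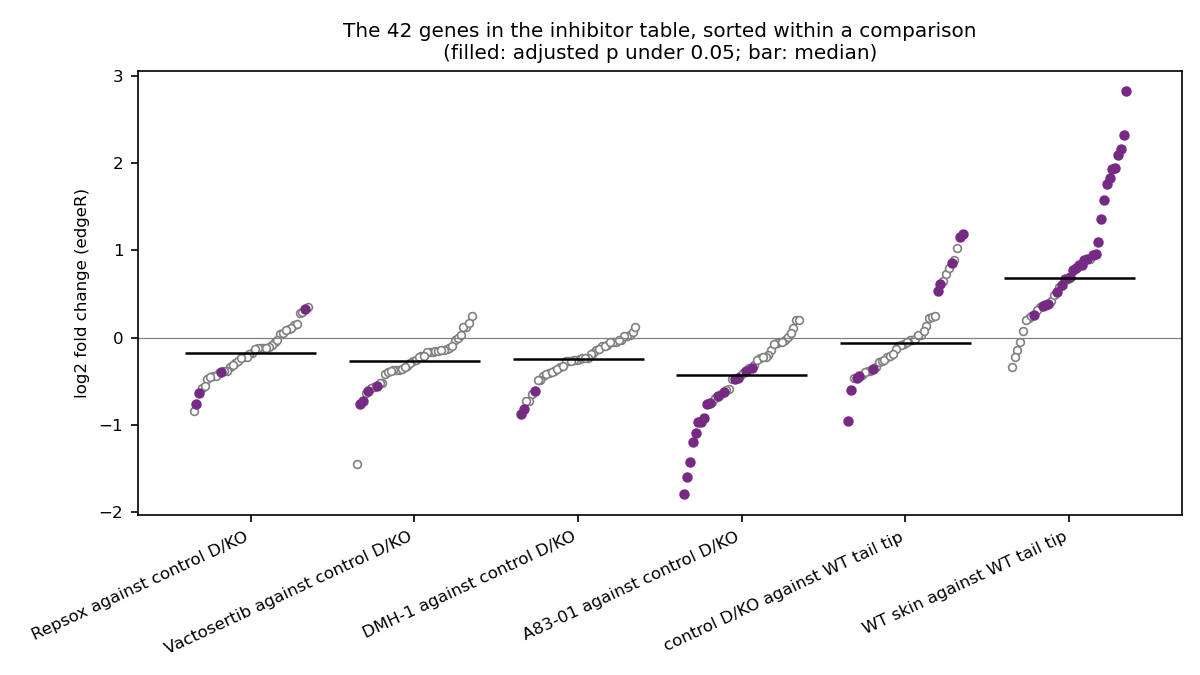
Log2 fold changes (edgeR) of the 42 genes in 6 comparisons of the inhibitor table, sorted within each (filled, adjusted p under 0.05; bar, median). A83-01 has 16 filled points below 0 and a median of -0.42, and WT skin against WT tail tip has 27 filled points above 0 and a median of 0.69.

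The share of the 42 genes that was called was below that of all genes between control D/KO and WT tail tip cells of the inhibitor table. This table was normalized separately from the reprogramming table, whose lines have other ages, sexes and transgenes. Of the 42, 5 were higher and 5 lower in D/KO, against 17.9% and 16.6% of all genes, with a median of -0.061, and plain totals gave 7 higher and 2 lower. The genes higher were Rrm2, at 24.02/22.6/26.03 CPM in D/KO and 11.8/9.81/10.3 CPM in WT cells, 1.19 (SE 0.14, adjusted p = 1.21e-06), Pole, at 3.96/5.46/6.197 and 2.31/3.49/1.19 CPM, 1.15 (SE 0.39, adjusted p = 0.028), Mcm5, at 11.5/10.4/10.1 and 6.63/5.08/5.93 CPM, 0.86 (SE 0.18, adjusted p = 0.000844), Cdt1 and Mcm2. Those lower were Gins4, at 23.8/21.8/20.2 and 44.1/37.4/46.2 CPM, -0.96 (SE 0.19, adjusted p = 0.000347), Prim1 (-0.60), Rrm1 (-0.47), Mcm6 (-0.44) and Lig1 (-0.36). Each of these genes separated the 2 groups in every library. The WT tail tip libraries differed among themselves by gene length, and Gins4 has a gene model of 1349 bases. The count of 10 was 4 without control D/KO replicate 2, 5 without control D/KO replicate 3 and 6 without WT tail tip replicate 1 or 3, and it was 5 with no filter on low counts. Endothelial markers summed to 309.7 to 344 CPM in control D/KO and 75.0 to 92.2 CPM in WT tail tip libraries. Muscle markers summed to 28.6 to 34.9 and 16.1 to 21.3 CPM. The part of other cell types was not tested.

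In untreated WT cells, skin fibroblasts stood above tail tip fibroblasts at most replication genes. Animal or line may change with tissue in this comparison. Of the 42, 27 were higher and 0 lower, against 18.1% of all genes called higher, with 0 lower at an unadjusted p under 0.05 and a median of 0.69. When only the groups compared were fitted, 16 were higher, and 18 members were called without WT tail tip replicate 2. No share of all genes is given for either setting. Without skin replicate 1, 23 were higher and 1, Gins4, lower, with a median of 0.53. Of the 27, Mcm4, Gins2, Pcna, Rfc2, Pold1, Pole2 and Dut were then not called, while Rfc1, Pola1 and Prim2 were called higher. Mcm10 was at 0.783/0.543/0.535 CPM in tail tip and 3.98/4.72/4.57 CPM in skin cells, 2.82 (SE 0.51, adjusted p = 0.000177). Cdc6 was at 0.522/1.395/1.52 and 6.66/5.01/5.46 CPM, 2.32 (SE 0.36, adjusted p = 3.3e-05), and Chaf1b at 1.94/1.55/1.32 and 7.37/6.71/7.48 CPM, 2.16 (SE 0.30, adjusted p = 1e-05). Rrm2 was at 11.8/9.81/10.3 and 44.5/43.97/48.02 CPM, 2.10 (SE 0.15, adjusted p = 6.13e-10). In these 4 all skin libraries lay above the tail tip libraries, and without skin replicate 1 the changes were 2.89, 2.19, 2.14 and 2.11, all called. Skin replicate 1 stood above the other 2 at each of the 7 members of the length check with models under 2500 bases, Pcna, Dut, Gmnn, Rfc4, Rpa3, Gins4 and Orc6, by a median of 1.32 log2 units. Pcna was at 90.99/32.3/38.1 CPM in skin and 29.6/26.6/36.8 in tail tip libraries, Dut at 65.2/26.7/24.99 and 22.96/16.6/26.2 CPM, and Gmnn at 18.7/6.29/8.13 and 3.17/1.94/3.54 CPM. At Pole, which has the longest gene model of the 42, skin replicate 1 was below the other 2, with 4.02/11.3/11.6 CPM in skin and 2.31/3.49/1.19 in tail tip libraries. Mcm5 was at 17.1/20.3/22.4 and 6.63/5.08/5.93 CPM, Cdt1 at 10.46/7.27/8.25 and 4.14/3.41/4.65 CPM, Tyms at 20.5/17.7/19.9 and 11.6/8.45/10.3 CPM, Rpa1 at 61.4/54.04/59.1 and 47.04/41.5/47.8 CPM and Rfc1 at 28.8/47.6/43.2 and 30.3/37.6/34.7 CPM. Of these 5 genes Rfc1 was not called with all libraries. Muscle markers summed to 122 to 152 CPM in skin and 16.1 to 21.3 CPM in tail tip libraries, endothelial markers to 182 to 248 and 75.002 to 92.2 CPM and leukocyte markers to 13.1 to 15.4 and 3.28 to 5.15 CPM, with Cd3e at 0 in both, and the part of other cell types was not tested.

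WT cells with the 4-factor cassette that are labelled TGFB have no untreated group in their table and entered no test. Their summed level was 409.3 ± 10.4 CPM, the lowest of the 8 groups, and 26 of the 42 genes had their lowest mean there. Tk1 was at 1.54/1.34/1.56 CPM, Mcm5 at 3.5995/4.52/2.66, Cdc6 at 0.483/0.83/0.642 and Prim1 at 0.834/0.415/0.642 CPM. Rrm2 was at 31.96/29.9/28.8 CPM, above control D/KO and WT tail tip libraries. Cdt1 was at 4.74/3.46/4.13, Gmnn at 1.097/1.75/2.48, Pcna at 21.7/22.2/20.7, Rfc1 at 27.04/25.7/27.9, Pole at 1.62/3.13/2.15, Tyms at 7.86/7.51/7.24 and Rpa1 at 36.8/44.1/35.7 CPM. Muscle markers summed to 1711 to 2063 CPM in these libraries, against at most 152 CPM in the other groups of that table. Myod1 was at 0 in these libraries, and how the sum divides over the listed genes is not given here.

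Other genes of the cell cycle, listed by function, were read in the same fits. Of 37 further replication genes, 23 were higher and 1 lower in D/KO cells at day 4 with VC against day 0 with VC, 4 and 6 in WT cells, and 16 and 1 with VC in WT cells at day 0. Of all genes 27.9% and 26.2%, 22.7% and 22.0%, and 15.1% and 14.4% were called higher and lower in these 3 comparisons, so that the WT counts with doxycycline lay below the share of all genes. Of 25 S phase regulators and E2F targets the same 3 comparisons gave 15 and 2, 3 and 10, and 18 and 0. Of 22 G2 and mitosis genes, such as Mki67 and Cdk1, they gave 22 and 0, 0 and 19, and 22 and 0, with medians of 1.32, -1.17 and 1.89, larger in size than those of the replication genes (0.75, -0.27 and 0.89). With A83-01 the 3 lists gave 10 of 36, 15 of 25 and 21 of 22 lower and none higher, against 13.9% of all genes called lower. Of 21 genes of nucleotide supply, 13 were higher and 4 lower in D/KO cells at day 4 with VC and 8 and 7 in WT cells. Of 12 Cdk inhibitors and quiescence genes 1 was higher and 8 lower in D/KO and 1 and 4 in WT cells. Usp1, a deubiquitinase with roles at the replication fork and an E2F target, had the smallest p of its list in D/KO cells at day 2, at 27.6 CPM at day 0 and 124 CPM at day 2, a change of 2.17 (SE 0.10, adjusted p = 6.27e-19). The summed level of the 22 G2 and mitosis genes was 78.7 to 88.2 CPM in WT cells at day 0, 263 to 316 CPM with VC, and 720 to 883 CPM in D/KO cells at day 4 with VC.

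The promoter letters were set beside the calls. At day 4 with VC in D/KO cells, 10 of the 13 genes with E2F letters and 16 of the 21 without them were called higher, and with VC in WT cells at day 0 9 of 13 and 14 of 21. In WT cells at day 4 with VC 3 of 13 and 8 of 21 were called lower. These counts are a description with no test.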

How the data were processed

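RNA of 60 fibroblast libraries was sequenced by the authors after polyA selection, and the deposited values are raw read counts per gene on GRCm39, made with Trim Galore, HISAT2 and featureCounts of Subread, with FastQC for quality. Their versions, the annotation release, the strand setting and the handling of multiply mapped reads are not given in the sources used here. Library totals were 16538374 to 30599138 counts. Each table was fitted separately with edgeR 4.0.16 (R 4.3.3, limma 3.58.1) by quasi-likelihood tests with TMM scaling, 1 coefficient per group, filterByExpr (minimum count 10, minimum total 15) and Benjamini-Hochberg adjustment over 15832 or 15652 genes. The common biological coefficients of variation were 0.132 and 0.195. Replicate pairs differed by at least 3.26 times the counting variance, so no pair looked like 1 library sequenced again, which does not show separate cultures. The procedure was tested on simulated data. DESeq2 1.42.0, RLE factors, other filters, fits of only the groups compared, day 0 without VC as baseline and leaving out each library were alternatives. Plain library totals, the difference of the VC effects at day 0 and the comparison of long with short genes were added after seeing the data. The members and lists were chosen with earlier results of these data known. Any member could be named. Values in every library were given for the 3 largest called changes in each direction of a day or inhibitor comparison, for Mcm5, Cdc6, Cdt1, Gmnn, Pcna, Rfc1, Pole, Rrm2, Tyms and Rpa1, and for members called against the majority, and other genes were named by smallest p in their list. Promoter windows came from RefSeq on GRCm38.p6 and gene overlaps from GENCODE M39 on GRCm39.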

Additional observations from a re-analysis of the deposited data

Results flagged for a closer look

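For some of the 42 genes the change with doxycycline differed between D/KO and WT cells, as tested by the difference of the log2 changes in edgeR. Without VC, 4 of the 42 genes differed at day 2, among them Pole by 1.10, Dut by -0.99 and Rrm1 by 0.56 (D/KO minus WT), against 6.54% of all genes. The Dut call was lost without any 1 of 4 libraries. At day 4, 5 differed, all higher, with Chaf1b at 1.52, Rfc4 at 1.05 and Pcna at 0.83. That share was below the 14.3% of all genes called in either direction, and the share called higher alone is not given here. With VC, 24 differed at day 2, with Cdc6 at 2.51, Mcm5 at 2.35 and Mcm10 at 2.33, and 30 at day 4, with Cdc6 at 2.78, Mcm5 at 2.72 and Fen1 at 2.68, the last on 3 to 42 counts per library, against 6.86% and 13.9% of all genes called higher. Set against day 0 without VC in both lines, 9 genes differed at each day, 2 of them lower at day 2, against 20.4% and 20.8% of all genes. Line, genotype, age and sex cannot be told apart in these differences.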

How the results depend on the processing

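No paired analysis was possible because the labels give no replicate numbers that tie libraries of different groups, and the numbers used here follow accession order. The total number of members called, whatever its split by direction, stayed within 1.5 times for 31 of 32 comparisons with DESeq2, 31 with RLE factors, 28 without a filter, 32 with at least 10 counts in every library, 22 with only the groups compared and 27 with plain totals. The cause of each exception was not tested. Shares of all genes called under these settings are not given. With plain totals D/KO day 4 gave 11 members called, D/KO day 4 against day 2 gave 2, the same with VC 13, WT day 4 against day 2 with VC 10 and A83-01 10. RLE factors gave 3 for D/KO day 4 against day 2. Without a filter that comparison gave 3, Repsox 2, Vactosertib 2 and control D/KO against WT tail tip 5. The split by direction moved with plain totals to 7 higher and 7 lower for WT day 4 with VC, 3 and 3 for VC in D/KO at day 0, 2 and 2 for Repsox and 7 and 2 for control D/KO against WT tail tip, and with DESeq2 to 8 and 5 for the last and 5 and 3 for D/KO day 4. With only the groups compared, which leaves fewer samples for the spread, D/KO day 4 against day 2 gave 1, the same with VC 10, WT day 4 against day 2 gave 5, the same with VC 7, VC in D/KO at day 0 gave 3, the line difference at day 4 gave 3, Repsox 2, Vactosertib 10, WT skin 16 and the difference of VC effects 13. DESeq2 gave 5 for DMH-1.

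With day 0 without VC as baseline, WT with VC gave 24 at day 2 and 25 at day 4, mostly higher instead of lower, and the line difference with VC gave 9 at either day, with Mcm5 at -0.14 and Cdt1 at -0.25 at day 2. At day 2 the WT log2 changes were then Mcm5 0.99, Cdc6 0.97, Cdt1 1.22, Pole 1.035, Tyms 0.29, Rpa1 0.70 and Chaf1b 1.26. At day 4 they were Mcm5 1.23, Cdc6 1.05, Cdt1 1.42, Gmnn 0.46, Pcna 0.36, Tyms 0.38, Rpa1 0.61, Chaf1b 1.035, Fen1 0.19 and Tk1 0.46, and with plain totals Rpa1 was 0.039 at day 4 with VC. Without a TMM factor the summed level per length became 144.3 CPM per kilobase in D/KO day 0 with VC, 323.3 in D/KO day 4 with VC, 127.2, 150.6 and 127.6 in WT at days 0, 2 and 4, 162.3 and 172.5 in WT days 0 and 4 with VC, 139.3 with Vactosertib, 132.7 with DMH-1, 131.6 with A83-01 and 89.62 in the cells labelled TGFB.

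Leaving out 1 library at a time, the lowest and highest counts of members called were these: D/KO day 2 against day 0 10 to 14, D/KO day 4 against day 0 6 to 7, D/KO day 2 plus VC against day 0 plus VC 21 to 23, D/KO day 4 plus VC against day 0 plus VC 26 to 29, WT day 2 against day 0 1 to 2, WT day 4 against day 0 2 to 4, WT day 2 plus VC against day 0 plus VC 11 to 15, WT day 4 plus VC against day 0 plus VC 13 to 17, D/KO day 4 against day 2 1 to 5, D/KO day 4 plus VC against day 2 plus VC 2 to 6, WT day 4 against day 2 3 to 10, WT day 4 plus VC against day 2 plus VC 2 to 7, D/KO VC effect at day 0 4 to 10, D/KO VC effect at day 2 13 to 20, D/KO VC effect at day 4 35 to 36, WT VC effect at day 0 26 to 29, WT VC effect at day 2 16 to 20, WT VC effect at day 4 22 to 26, D/KO change minus WT change at day 2 2 to 4, D/KO change minus WT change at day 2 plus VC 22 to 24, D/KO change minus WT change at day 4 3 to 5, D/KO change minus WT change at day 4 plus VC 26 to 31, D/KO day 0 against WT day 0 21 to 26, Repsox against control D/KO 2 to 3, Vactosertib against control D/KO 2 to 5, DMH-1 against control D/KO 2 to 2, A83-01 against control D/KO 11 to 12, Repsox against Vactosertib 0 to 0, A83-01 against DMH-1 5 to 6, control D/KO against WT tail tip 4 to 9, WT skin against WT tail tip 18 to 28, D/KO VC effect minus WT VC effect at day 0 14 to 21. For single genes, 2451 of 2688 such values kept their call, 222 lost it, 15 gained one and 0 changed sign. At these depths Fen1, Gins1, Orc1 and Mcm10 rest on few counts.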
